A study of Homo sapiens with 19 samples.

Results

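SHEP TET21N cells in the MYCN-low state were compared 3 days after a doxorubicin treatment had ended with untreated cells of the same state. SHEP TET21N is an established human neuroblastoma line that carries a MYCN transgene which doxycycline switches off. The treated cultures received 0.1 µg/ml doxorubicin for 72 h, the drug was then washed out, and the cells were collected 3 days later. The untreated cultures received no doxorubicin, and all MYCN-low cultures of both groups held doxycycline. Of the 19 libraries of the study, in 10 groups, 4 belong to this comparison: 2 from day 3 and 2 from untreated cells, each pair being duplicates that the labels call biological and mark B and C. All came from 1 cell line, and no untreated cells were collected at the time of day 3, so time in culture and the drug cannot be told apart. Doxycycline was in both groups, and its own effect cannot be told apart from low MYCN.

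Doxorubicin is an anthracycline that holds topoisomerase II on DNA and leads to strand breaks. Broken DNA activates the transcription factor p53, which switches on the cyclin-dependent kinase inhibitor CDKN1A (p21) among many other genes. CDKN1A keeps the RB family of proteins active, and these, with the DREAM complex, hold genes of DNA replication and mitosis down, so cells can stop dividing for a time or for good (senescence). MYCN is a MYC-family transcription factor often amplified in aggressive neuroblastoma, and the comparison addresses what the cells express soon after the drug when the transgene is off.

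The libraries held 23060311 and 19812806 gene counts at day 3 (B and C), against 17069126 and 25872769 in untreated cells. The untreated pair stood further apart than any other pair of the study, with 2647 genes over 2-fold apart, against 1290 for the day 3 pair and 1103 to 1664 for the others. Levels are given as CPM, counts scaled to a common library total, after TMM scaling, which rests on the bulk of genes having a like share of the RNA. Synthetic ERCC RNAs added to each sample took 0.0826% and 0.252% of the counts at day 3, against 0.367% and 0.12% in untreated cells, so replicates differed in this share as much as the groups did. Scaled by ERCC counts instead, the median log2 fold change of all genes moved to 0.50, from 0.02, and no gene passed the test, although 513 had an unadjusted p under 0.05. Of 16 listed structured and mitochondrial ribosomal RNAs, 6 could be tested, and the mitochondrial ribosomal RNAs MT-RNR1 and MT-RNR2 were not among them. None of the 6 was called, and their median was 0.24. Every call below is therefore a change relative to the other genes, not per cell, and was lost under ERCC scaling.

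A total of 14793 genes were tested, and 3431 (23.2%) had an adjusted p under 0.05 in edgeR's quasi-likelihood test with Benjamini-Hochberg adjustment, 1548 (10.5%) higher and 1883 (12.7%) lower at day 3. Falls reached further than rises: 1129 genes (7.63%) were called with a log2 fold change of -1 or below, and 713 (4.82%) with 1 or above. In 3428 of the called genes (23.2% of those tested) both libraries of 1 group lay above both of the other, which 54.4% of all tested genes showed, called or not. The count was 1912 without replicate B of day 3 and 2030 without replicate C, and 1387 when the 4 libraries were fitted alone. Among the 15 largest rises, at a mean of at least 5 CPM in the higher group, were the secreted proteins IGFBP7 and GDF15, the growth factor TGFA, the serotonin receptor HTR2A and the antiviral ubiquitin ligase TRIM22. The 15 largest falls included histone genes and genes of cell division, such as CDC20, which activates the anaphase-promoting complex, MYBL2, a factor that switches on mitotic genes, and CDC25C, the phosphatase that turns on CDK1. In bulk libraries, fewer cells of a kind and less of an RNA in each cell cannot be told apart.

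**Figure D1:**
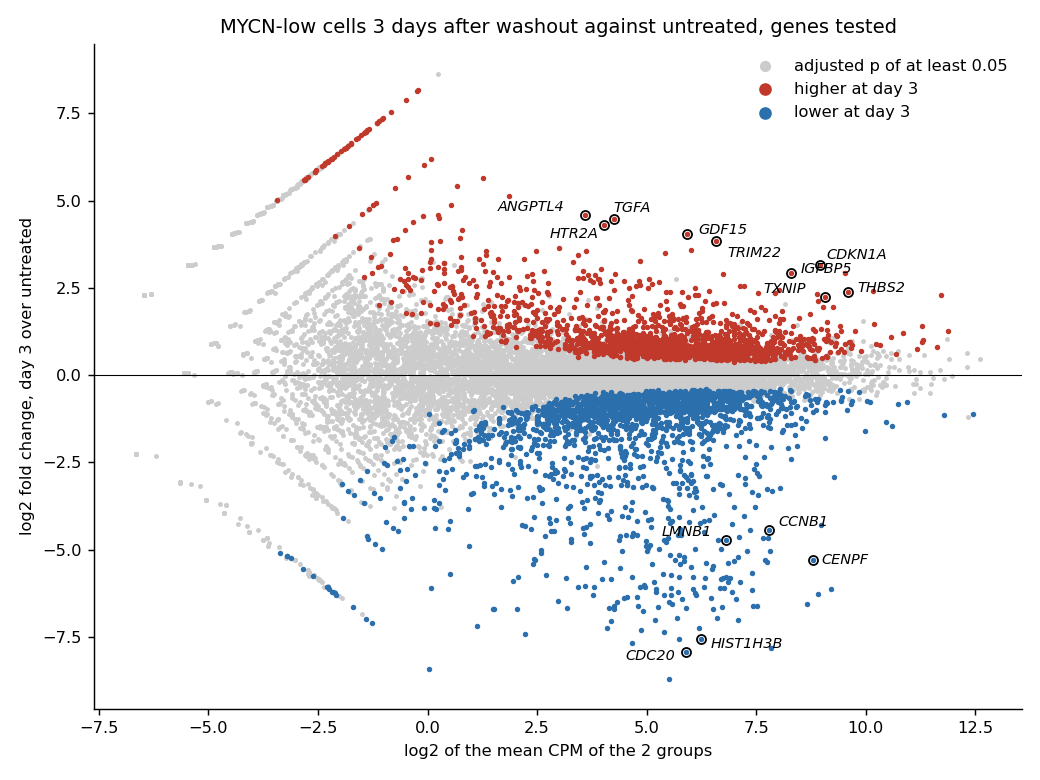
Each point is a tested gene, with the log2 of the mean CPM of the 2 groups on the horizontal axis and the log2 fold change, day 3 over untreated, on the vertical axis. Red and blue points passed an adjusted p of 0.05, and circled genes are described in the text: CDC20 and HIST1H3B lie near the bottom, and HTR2A, ANGPTL4 and TGFA near the top at low levels.

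CDKN1A, the p53 target that blocks cyclin-dependent kinases, had 1053 and 722 CPM at day 3, against 117 and 81.2 CPM in untreated cells. The groups lay far apart, and the log2 fold change was 3.16 ± 0.36 (edgeR adjusted p = 1.03e-05); here and below, ± is an approximate standard error, the absolute log2 fold change over the square root of the F statistic. The stress cytokine GDF15 had 143 and 85.9 CPM at day 3, against 11.9 and 2.27 CPM in untreated cells, so its untreated libraries differed widely but stayed below both others. TGFA, a ligand of the EGF receptor, had 38.8 and 23.6 CPM at day 3, against 1.76 and 1.40 CPM in untreated cells. Its log2 fold change of 4.31 ± 0.41 was the highest among the p53 targets.

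Of 48 p53 targets, 47 were tested, and 34 rose while 2 fell, with a median log2 fold change of 1.28, against 0.02 over all genes tested. The rises included CYFIP2, a partner of the actin regulator WAVE, with 133 and 105 CPM at day 3, against 7.75 and 12.1 CPM in untreated cells. C12orf5, which encodes TIGAR, a regulator of sugar use, had 106 and 98.1 CPM at day 3, against 21.5 and 21.8 CPM in untreated cells. EDA2R, a receptor of the TNF family, rose by 2.50 ± 0.26 on the log2 scale, and PTCHD4, a patched-like membrane protein, by 3.29 ± 0.30. TP53INP1, a nuclear stress protein that p53 induces, rose by 3.49 ± 0.55. Some known targets did not pass the test: BAX, which opens the outer mitochondrial membrane, had a log2 fold change of 0.36 and PLK2, a stress-induced polo-like kinase, of 0.21. The 2 members that fell were the tetraspanin CD82 (-1.76) and the phosphatase DUSP14 (-0.55). CD82 was not called without untreated replicate B (-1.32) or day 3 replicate C (-1.55), and DUSP14 was not called without either of these or without day 3 replicate B. BAX, PLK2, CD82 and DUSP14 were chosen after their values were seen.

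MYCN had 21.7 and 29.3 CPM at day 3, against 30.7 and 19.1 CPM in untreated cells, so the groups overlapped, and the log2 fold change was 0.04 ± 0.30 (edgeR adjusted p = 0.945). Its level in MYCN-high cells at the same time was 604 and 765 CPM, so the libraries stood as their labels say. Leaving out replicate C of either group gave a negative log2 fold change, -0.20 without day 3 replicate C and -0.29 without untreated replicate C. MYC, the related factor, had 13.9 and 9.86 CPM at day 3, against 16.2 and 13.1 CPM in untreated cells, with a log2 fold change of -0.30 ± 0.37 (edgeR adjusted p = 0.596) that turned to 0.39 under ERCC scaling.

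HTR2A, the serotonin 2A receptor, which signals through Gq and phospholipase C, had 48.2 and 25.1 CPM at day 3, against 2.36 and 1.04 CPM in untreated cells. Its libraries did not overlap, and the log2 fold change was 4.46 ± 0.63 (edgeR adjusted p = 0.000101). Of 32 receptors for serotonin and other amines, 14 had enough counts to be tested, and the median was -0.16. Of these, 2 rose (14.3%, against 10.5% of all genes) and 0 fell (against 12.7%). The other that rose was HTR1F, with 2.94 and 0.506 CPM at day 3, against 0 and 0 CPM in untreated cells. HTR1F had at most 0.217 CPM in any MYCN-high library, so only treated MYCN-low libraries gave it enough counts to be tested. A fall could therefore not have been called for it. Its 75 counts at day 3 made HTR1F at least 25.8-fold higher, against a floor of 3 counts over the untreated group, but 65 of them came from replicate B, and without it the bound was 7.30-fold. ANGPTL4, a secreted inhibitor of lipoprotein lipase, had 33.8 and 12.3 CPM at day 3, against 1.59 and 0.399 CPM in untreated cells. Its rise of 4.60 ± 0.59 (edgeR adjusted p = 4.05e-05) stood beside a wide spread within both pairs, and the groups did not overlap.

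Cell division genes fell together. All 56 members of the G2 and mitosis list fell, with a median log2 fold change of -5.80, and each leaving-out of a library kept the count at 56. Summed over the list, the level was 397 and 485 CPM at day 3, against 11770 and 14632 CPM in untreated cells. CCNB1, the cyclin that drives entry into mitosis, had 18.3 and 20.7 CPM at day 3, against 363 and 484 CPM in untreated cells. CENPF, a protein of the outer kinetochore, had 18.5 and 25.1 CPM at day 3, against 725 and 997 CPM in untreated cells. CDC20 was nearly gone, at 0.543 and 0.405 CPM at day 3, against 150 and 89.1 CPM in untreated cells. KIF14, a motor of cytokinesis (-6.09 ± 0.39), NUF2, a kinetochore subunit that binds microtubules (-5.74 ± 0.40), and PTTG1, the securin that restrains separase (-5.16 ± 0.38), also fell, each by less than CDC20. BUB3, a checkpoint protein chosen after its value was seen, was the member that fell least, by 1.19 on the log2 scale.

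Promoters of such genes often carry a CHR element (TTTGAA), which the DREAM complex and the MYB-MuvB complex bind, together with CCAAT boxes, which NF-Y binds. In the 250 bases before the start in RefSeq (GRCh38.p14), searched on both strands, TTTGAA was present in 25 of the 47 mitosis promoters found in the table (53.2%), against 13.3% of all 35116 promoters of that length. CCAAT was in 78.7% of them, against 32% of all, and both motifs were in 44.7%, against 4.69%. In the 45 replication promoters found, TTTGAA was present in 1 (2.22%), while the E2F motif TTCCCGC was in 14 (31.1%), against 5.52% of all. CCAAT was in 53.3% of these replication promoters. The 38 p53 target promoters found held TTTGAA in 2 cases (5.26%), CCAAT in 42.1% and TTCCCGC in 13.2%. Only 39 of 49 histone genes had a promoter in the table, so the set was incomplete, and 17 of them (43.6%) held TTTGAA. The CCAAT motif was in 84.6% of these histone promoters, and it stood with TTTGAA in 33.3%. TTCCCGC was in 15.4% of the histone promoters and in 10.6% of the mitosis promoters. Neither the single motifs nor the pair were therefore limited to the mitosis list. Among the 11238 tested genes with a promoter (76% of those tested, also incomplete) TTTGAA was in 9.08%, CCAAT in 35.4% and TTCCCGC in 8.67%. These matches are letters in a window and do not show binding. The sequences below stand for the mitosis and replication lists, and were chosen after the values were seen. KIF23, ECT2 and KIF4A hold TTTGAA and CCAAT in capitals (ATTGG is CCAAT on the other strand), and CDC7 holds the E2F motif (GCGGGAA is TTCCCGC on the other strand).
KIF23, chr15:69414099-69414348, + strand: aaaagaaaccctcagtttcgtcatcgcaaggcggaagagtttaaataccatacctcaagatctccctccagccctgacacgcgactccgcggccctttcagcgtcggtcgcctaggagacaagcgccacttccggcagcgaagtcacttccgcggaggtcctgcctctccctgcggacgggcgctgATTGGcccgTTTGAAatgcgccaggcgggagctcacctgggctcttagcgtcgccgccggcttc
ECT2, chr3:172750476-172750725, + strand: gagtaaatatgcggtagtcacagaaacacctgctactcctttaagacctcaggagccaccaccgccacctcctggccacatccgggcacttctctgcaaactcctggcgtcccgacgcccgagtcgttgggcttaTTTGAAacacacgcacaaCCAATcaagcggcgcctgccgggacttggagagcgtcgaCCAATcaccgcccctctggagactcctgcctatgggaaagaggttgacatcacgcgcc
KIF4A, chrX:70289854-70290103, + strand: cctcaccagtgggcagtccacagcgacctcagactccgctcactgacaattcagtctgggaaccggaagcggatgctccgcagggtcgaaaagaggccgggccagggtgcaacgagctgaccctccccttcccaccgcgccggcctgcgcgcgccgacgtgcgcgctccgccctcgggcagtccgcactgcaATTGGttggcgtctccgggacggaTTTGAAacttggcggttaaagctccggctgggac
CDC7, chr1:91500601-91500850, + strand: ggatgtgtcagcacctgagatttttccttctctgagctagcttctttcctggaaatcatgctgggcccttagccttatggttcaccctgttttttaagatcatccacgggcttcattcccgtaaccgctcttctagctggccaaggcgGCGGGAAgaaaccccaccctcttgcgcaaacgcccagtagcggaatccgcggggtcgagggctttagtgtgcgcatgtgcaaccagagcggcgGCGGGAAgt
KIF23, a motor of the midbody, had 15.7 and 16.8 CPM at day 3, against 316 and 521 CPM in untreated cells. ECT2, which activates RhoA at the cleavage furrow, had 34.0 and 35.5 CPM at day 3, against 218 and 320 CPM in untreated cells. KIF4A, a motor that organises the central spindle, had 2.76 and 3.29 CPM at day 3, against 247 and 274 CPM in untreated cells. CDC7, the kinase that fires replication origins, had 2.22 and 2.28 CPM at day 3, against 23.6 and 32.4 CPM in untreated cells. In all 4 genes the day 3 libraries lay within a narrow band far below both untreated libraries.

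Of 52 DNA replication genes, 50 fell and none rose, with a median of -2.81. CDC45, a subunit of the replicative helicase, had 0.679 and 0.405 CPM at day 3, against 42.7 and 76.6 CPM in untreated cells. TIMELESS, which protects moving forks, fell by 2.87 ± 0.17 on the log2 scale, and DBF4, the partner of CDC7, by 2.92 ± 0.22. The 2 members that did not pass were PRIM2, a primase subunit (-0.42), and RFC1, a subunit of the clamp loader (-0.20), which were chosen after their values were seen. Of 28 tested genes that repair crosslinks or breaks by recombination (the Fanconi list), 25 fell, with a median of -3.22; FANCD2, which marks stalled forks, had 3.12 and 2.93 CPM at day 3, against 81.0 and 85.8 CPM in untreated cells. FANCI, its partner, had 8.69 and 9.56 CPM at day 3, against 132 and 192 CPM in untreated cells.

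All 49 tested replication-dependent histone genes fell, with a median of -5.30, and 48 fell without day 3 replicate C. HIST1H2AE had 10.6 and 10.4 CPM at day 3, against 278 and 249 CPM in untreated cells, and HIST1H3B had 0.543 and 1.06 CPM at day 3, against 199 and 103 CPM in untreated cells. Histone genes are near-identical copies, so how the authors' counting split their reads makes single members uncertain. In the list of lamina and chromatin proteins known to be lost in senescence, 15 of 18 fell, with a median of -2.39. LMNB1, which forms the B-type nuclear lamina, had 6.43 and 10.2 CPM at day 3, against 186 and 249 CPM in untreated cells. EZH2, the methyltransferase of Polycomb complex PRC2, fell by 2.46 ± 0.24 on the log2 scale. H2AFZ, the histone variant H2A.Z, fell by 2.89 ± 0.26.

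CDKN1A was counted among the p53 targets, and of 23 other tested CDK inhibitors, CDKs, cyclins, E2F factors and RB family members 1 rose and 14 fell. The shares were 4.35% higher, against 10.5% of all genes, and 60.9% lower, against 12.7%. Their median was -0.77, and fewer fell without day 3 replicate C. E2F1, which switches on S phase genes, had 0.498 and 0.860 CPM at day 3, against 22.5 and 14.9 CPM in untreated cells, and E2F8, a repressor of the same family, 0.0453 and 0.304 CPM at day 3, against 16.6 and 14.4 CPM in untreated cells. RBL1 (p107) fell by 2.81 ± 0.35 on the log2 scale, and CDK2, the kinase of S phase entry, by 2.42 ± 0.28. The member that rose was CCND1 (cyclin D1), chosen after its values were seen, with 387 and 348 CPM at day 3, against 185 and 162 CPM in untreated cells. RBL2 (p130), the RB family member found in resting cells, had a log2 fold change of 0.24 and CDK6 of 0.56; neither passed, and both were chosen after their values were seen.

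**Figure D2:**
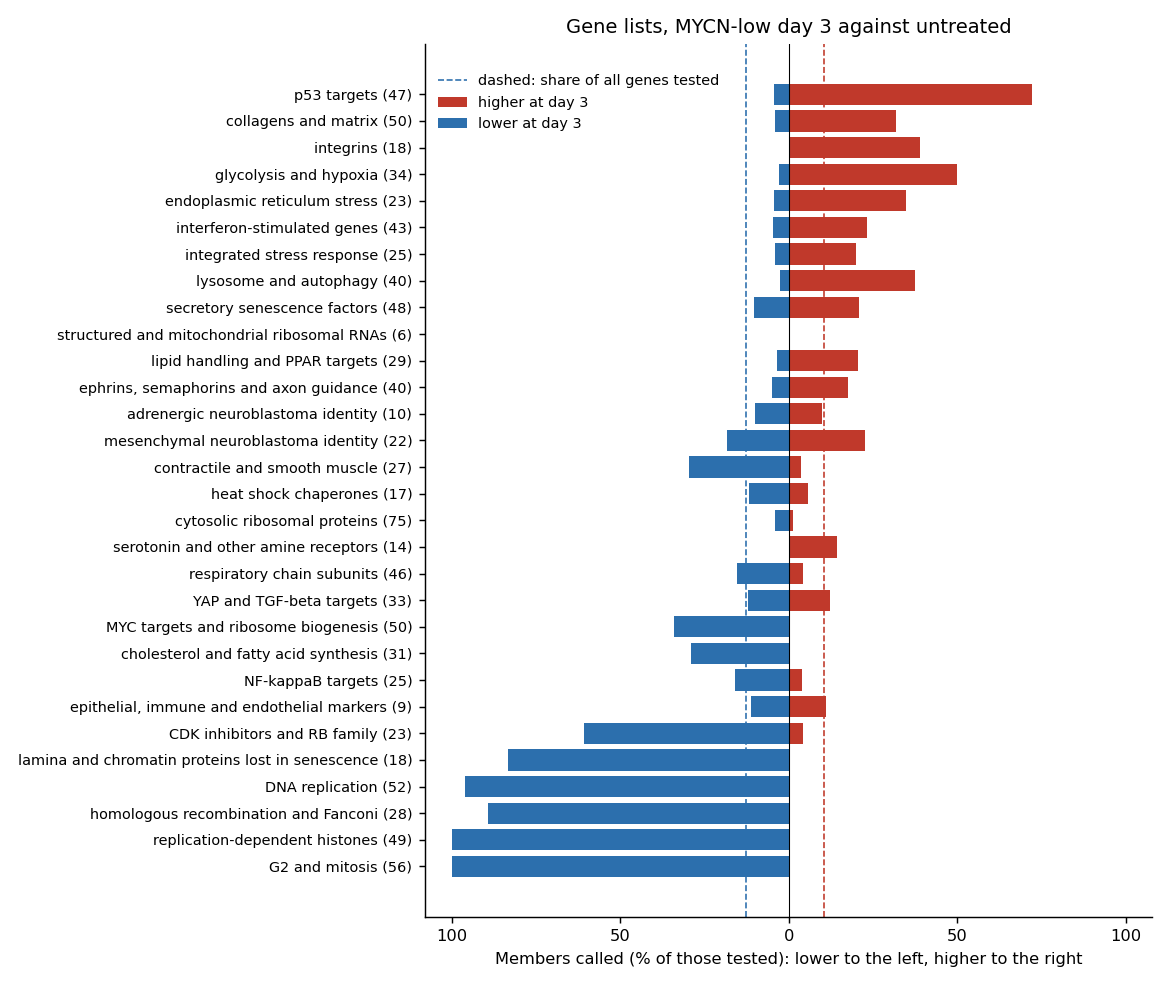
Bars give the share of tested members of each list with an adjusted p under 0.05, higher at day 3 to the right and lower to the left, with the number tested in brackets and lists ordered by median log2 fold change. Dashed lines mark the shares over all genes tested, 10.5% higher and 12.7% lower. The G2 and mitosis list and the histones are called lower in full, and p53 targets have the highest median.

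Matrix and adhesion genes rose in part. Of 50 tested collagens and matrix proteins, 16 rose (32%, against 10.5% of all genes) and 2 fell (4%, against 12.7%). Their median was 0.69. Fewer rose without untreated replicate C or without day 3 replicate B, and more fell without untreated replicate C. THBS2, a matricellular thrombospondin, had 1474 and 1142 CPM at day 3, against 346 and 152 CPM in untreated cells, a log2 fold change of 2.39 ± 0.37 (edgeR adjusted p = 0.000265). EFEMP1, a fibulin, had 845 and 1127 CPM at day 3, against 466 and 271 CPM in untreated cells. VCAN, the proteoglycan versican, had 1105 and 463 CPM at day 3, against 211 and 100 CPM in untreated cells, and without day 3 replicate B its log2 fold change was 1.56 and it was not called. The members that fell were 2 chains of collagen VI, COL6A1 (-0.89) and COL6A2 (-0.95), chosen after their values were seen; neither call held without untreated replicate B or without day 3 replicate B.

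Integrins, the receptors for such matrix, had 7 rises (38.9%, against 10.5% of all genes) and no fall (against 12.7%) among 18 tested. Their median was 0.64, and fewer rose without day 3 replicate B. ITGA4, a chain that binds VCAM1 and fibronectin, had 929 and 628 CPM at day 3, against 173 and 185 CPM in untreated cells. ITGA1, a collagen receptor chain, had 366 and 258 CPM at day 3, against 67.4 and 55.8 CPM in untreated cells. In both genes the day 3 libraries lay far above the untreated ones. Of 40 tested genes of axon guidance, 7 rose (17.5%, against 10.5% of all genes) and 2 fell (5%, against 12.7%). Their median was 0.13, and fewer rose without day 3 replicate C. SEMA3A, a secreted repellent, rose by 1.49 ± 0.28 on the log2 scale and SEMA3D by 1.66 ± 0.34, while NRP2, a semaphorin co-receptor, fell by 0.95 ± 0.17.

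Of 48 tested secreted factors of senescent cells, 10 rose (20.8%, against 10.5% of all genes) and 5 fell (10.4%, against 12.7%), with a median of 0.42. IGFBP5, which binds insulin-like growth factors, had 501 and 614 CPM at day 3, against 99.8 and 48.1 CPM in untreated cells. VEGFA, the growth factor for blood vessels, had 87.4 and 60.2 CPM at day 3, against 24.1 and 20.1 CPM in untreated cells. IL1B, a pro-inflammatory cytokine, rose by 2.52 ± 0.49 on the log2 scale from low levels, with 3.08 and 1.92 CPM at day 3, against 0.330 and 0.519 CPM in untreated cells. IL6, chosen after its values were seen, was also near the limit of detection, at 1.86 and 0.809 CPM at day 3, against 0.0549 and 0.0798 CPM in untreated cells, and was not called without day 3 replicate B (3.44). The falls were MMP10, a stromelysin (-4.08 ± 0.77), and AXL, a receptor tyrosine kinase (-1.06 ± 0.22), with CXCL6, CXCL12 and TNFRSF1B. Over the alternative fits, ERCC scaling among them, the log2 fold change was -4.63 to -3.25 for MMP10 and -1.125 to -0.54 for AXL. It was -5.54 to -4.59 for CXCL6, -2.53 to -1.49 for CXCL12 and -2.56 to -1.69 for TNFRSF1B. CXCL6, CXCL12 and TNFRSF1B were chosen after their values were seen, and their calls were lost without day 3 replicate B, among others.

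NF-kappaB targets had 1 rise (4%, against 10.5% of all genes) and 4 falls (16%, against 12.7%) among 25 tested. Their median of -0.54 turned to 0.22 under ERCC scaling, below the 0.50 of all genes. VCAM1, an adhesion molecule, rose by 1.71 ± 0.45 on the log2 scale; without untreated replicate B its log2 fold change was 1.75 and it was not called. The falls were TRAF1 and TRAF2, adaptors of TNF receptors, NFKB1, a subunit of the factor, and NFKBIA, its inhibitor; there was 1 fall without day 3 replicate C, 2 without day 3 replicate B and 7 without untreated replicate C. Of 43 tested interferon-stimulated genes, 10 rose (23.3%, against 10.5% of all genes) and 2 fell (4.65%, against 12.7%). Their median was 0.48. Fewer rose without untreated replicate B or without either day 3 library, and more fell without untreated replicate C. TRIM22, which p53 also induces, had 187 and 173 CPM at day 3, against 10.7 and 14.2 CPM in untreated cells. IFIT2, which binds viral RNA, had 25.0 and 33.2 CPM at day 3, against 4.45 and 8.02 CPM in untreated cells. OAS3, an oligoadenylate synthetase, fell by 1.48 ± 0.27 on the log2 scale, and the other fall was USP18, which removes ISG15 and was chosen after its values were seen; its call was lost without untreated replicate B or either day 3 library.

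Of 40 tested lysosome and autophagy genes, 15 rose (37.5%, against 10.5% of all genes) and 1 fell (2.5%, against 12.7%), with a median of 0.43. MANBA, the lysosomal beta-mannosidase, had 136 and 107 CPM at day 3, against 31.9 and 31.8 CPM in untreated cells. FUCA1, the lysosomal fucosidase, had 116 and 145 CPM at day 3, against 39.8 and 44.1 CPM in untreated cells. HEXA, a chain of hexosaminidase, rose by 0.96 ± 0.14 on the log2 scale, and MAP1LC3B, which coats autophagosomes, by 1.05 ± 0.18. GUSB, the lysosomal glucuronidase, was the member that fell (-0.77); it was chosen after its values were seen, and its call was lost without untreated replicate B or either day 3 library.

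Glycolysis and hypoxia genes had 17 rises (50%, against 10.5% of all genes) and 1 fall (2.94%, against 12.7%) among 34. Their median was 0.60, and fewer rose without day 3 replicate B. P4HA1, a prolyl hydroxylase of collagen, had 738 and 578 CPM at day 3, against 162 and 227 CPM in untreated cells. BNIP3L, a mitophagy receptor, had 292 and 260 CPM at day 3, against 79.8 and 101 CPM in untreated cells. PDK1, the kinase that holds back pyruvate dehydrogenase, rose by 1.45 ± 0.23 on the log2 scale and the glucose transporter SLC2A3 by 1.67 ± 0.30. The fall was PFKP, a phosphofructokinase (-0.71), chosen after its values were seen and not called without day 3 replicate C. Among 29 tested genes of lipid handling, 6 rose (20.7%, against 10.5% of all genes) and 1 fell (3.45%, against 12.7%), with a median of 0.21. TXNIP, which binds thioredoxin and limits glucose uptake, had 952 and 825 CPM at day 3, against 219 and 156 CPM in untreated cells, while FABP5, a fatty acid carrier, fell to 9.46 and 5.72 CPM at day 3, against 20.2 and 55.7 CPM in untreated cells. There were 4 rises without untreated replicate B and 4 without either day 3 library, and 3 falls without untreated replicate C.

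Cholesterol and fatty acid synthesis had 9 falls (29%, against 12.7% of all genes) and no rise (against 10.5%) among 31 tested. The median was -0.41, and fewer fell without either day 3 library. Under ERCC scaling this median was 0.12, below the 0.50 of all genes. EBP, a sterol isomerase, had 10.3 and 13.1 CPM at day 3, against 31.6 and 36.9 CPM in untreated cells. FDPS, which makes farnesyl diphosphate, fell by 0.88 ± 0.14 on the log2 scale and FADS1, a fatty acid desaturase, by 0.99 ± 0.15. Endoplasmic reticulum stress genes had 8 rises (34.8%, against 10.5% of all genes) and 1 fall (4.35%, against 12.7%) among 23. Their median was 0.54, and fewer rose without untreated replicate B or without day 3 replicate B. DNAJB9, a co-chaperone, rose by 1.65 ± 0.23, and SEL1L, which feeds misfolded proteins to degradation, by 1.20 ± 0.21. In the integrated stress response list, 5 of 25 rose (20%, against 10.5% of all genes) and 1 fell (4%, against 12.7%). The median was 0.47, and fewer rose without day 3 replicate B. DDIT4, which restrains mTORC1, rose by 2.58 ± 0.53, and SESN2, a leucine sensor and p53 target, by 1.91 ± 0.38.

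Genes of ribosome production and other MYC targets had 17 falls (34%, against 12.7% of all genes) and no rise (against 10.5%) among 50. Their median was -0.33. Fewer fell without either day 3 library, and some rose without untreated replicate C. Under ERCC scaling the median was 0.04, below the 0.50 of all genes. FBL, the methyltransferase fibrillarin, had 11.7 and 15.6 CPM at day 3, against 32.5 and 33.3 CPM in untreated cells. CAD, which starts pyrimidine synthesis, had 36.6 and 25.9 CPM at day 3, against 82.4 and 76.8 CPM in untreated cells. LYAR, a nucleolar protein, fell by 1.27 ± 0.21 on the log2 scale. Of 75 tested cytosolic ribosomal proteins, 1 rose (1.33%, against 10.5% of all genes) and 3 fell (4%, against 12.7%). Their median was -0.15 (0.26 under ERCC scaling), and RPL13A (0.88), RPL8 (-0.87), RPL35 (-0.59) and RPL17 (-1.43) were those called. Each of these 4 calls was lost without untreated replicate B and without day 3 replicate C, while 4 rose and 9 fell without untreated replicate C. Respiratory chain subunits had 2 rises (4.35%, against 10.5% of all genes) and 7 falls (15.2%, against 12.7%) among 46. Their median was -0.18 (0.26 under ERCC scaling). Both counts dropped without either day 3 library and grew without untreated replicate C. Heat shock chaperones had 1 rise (5.88%, against 10.5% of all genes) and 2 falls (11.8%, against 12.7%) among 17. Their median was -0.10 (0.42 under ERCC scaling). The rise was CRYAB, a small heat shock protein (3.32 ± 1.08). CRYAB was not called without untreated replicate C (2.20), without day 3 replicate B (3.05) or without day 3 replicate C (3.51). There were 4 rises in the list without untreated replicate C, no fall without day 3 replicate B and 1 fall without day 3 replicate C.

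Contractile genes had 1 rise (3.7%, against 10.5% of all genes) and 8 falls (29.6%, against 12.7%) among 27. Their median was -0.09 (0.51 under ERCC scaling). Fewer fell without untreated replicate B or without either day 3 library. The rise was CALD1, the actin-binding protein caldesmon, with 3670 and 3610 CPM at day 3, against 1446 and 1272 CPM in untreated cells. SRF, the factor that switches on many actin genes, had 52.4 and 58.9 CPM at day 3, against 179 and 112 CPM in untreated cells. Targets of YAP and TGF-beta had 4 rises and 4 falls among 33 (12.1% each, against 10.5% higher and 12.7% lower over all genes), with a median of -0.26 (0.50 under ERCC scaling), and 2 rises without untreated replicate B or without day 3 replicate B. WWTR1 (TAZ), the paralogue of YAP, rose by 1.37 ± 0.25 on the log2 scale and the receptor TGFBR1 by 1.15 ± 0.22, while TGFBI, a secreted matrix protein, fell by 1.14 ± 0.23 and TEAD4, a DNA-binding partner of YAP, by 1.62 ± 0.33.

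As for cell identity, 10 of 20 adrenergic neuroblastoma genes had enough counts to be tested, and the defining genes DBH and TH were not among them. Of the 10 tested, 1 rose (10%, against 10.5% of all genes) and 1 fell (10%, against 12.7%). SCG2, a secretogranin of dense-core vesicles, was the 1 that rose, with 1164 and 1442 CPM at day 3, against 204 and 140 CPM in untreated cells. GATA2, a factor of the sympathetic lineage, was the 1 that fell, with 9.10 and 12.9 CPM at day 3, against 31.4 and 23.8 CPM in untreated cells. Among 22 tested mesenchymal genes, 5 rose (22.7%, against 10.5% of all genes) and 4 fell (18.2%, against 12.7%). Their median was -0.05 (0.47 under ERCC scaling). Fewer rose without day 3 replicate B, and fewer fell without untreated replicate B or without day 3 replicate C. TWIST1, a factor of mesenchymal cells, fell by 1.84 ± 0.17 on the log2 scale, and SOX9, a factor of neural crest and cartilage, rose by 1.60 ± 0.37 but was not called without day 3 replicate B (1.14). Of 16 epithelial, immune and endothelial markers, 9 were tested, with 1 rise (11.1%, against 10.5% of all genes) and 1 fall (11.1%, against 12.7%). Their summed level was 657 and 1121 CPM at day 3, against 1782 and 1036 CPM in untreated cells. Most of it was the keratins KRT18 and KRT8, which did not pass. The rise was PTPRC, the leukocyte antigen CD45, at 1.90 and 1.01 CPM at day 3, against 0 and 0.0399 CPM in untreated cells, and the fall was CD68 (-1.35), a lysosomal glycoprotein; both calls were lost without untreated replicate B and without day 3 replicate B. CDH1, CDH5, CD3E and CD14 were not tested for lack of counts. All these markers were named with their values in view, and their part in the other results was not tested.

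Day 3 was also set beside the end of the 72 h treatment. In that contrast 8 genes (0.0541%) were called, 1 higher (0.00676%) and 7 lower (0.0473%) at day 3, while 1072 had an unadjusted p under 0.05; no more than 1 was called when any of the 4 libraries was left out. The 8 genes were chosen by their values. ABHD2, a hydrolase, was higher, with 168 and 138 CPM at day 3, against 81.6 and 86.6 CPM at 72 h. XPC, which finds damaged bases and is a p53 target, had 134 and 160 CPM at day 3, against 305 and 300 CPM at 72 h. TP53I3, a p53-induced oxidoreductase, had 25.6 and 25.1 CPM at day 3, against 90.7 and 63.8 CPM at 72 h, and PCNA, the sliding clamp, 96.5 and 102 CPM at day 3, against 242 and 227 CPM at 72 h. FADS1, CPSF4, HCFC1R1 and EPB41L4B were the others that were lower. No member of the mitosis list was called against 72 h, with a median of 0.93, and the sum of the list's CPM was far below the untreated level at both times.

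Along the MYCN-low time points, CDKN1A had 117 and 81.2 CPM untreated, 2000 and 1529 CPM at 72 h, 1053 and 722 CPM at day 3, 657 and 569 CPM at day 8 and 661 CPM in the 1 library of day 14. ANGPTL4 had 1.59 and 0.399 CPM untreated, 6.52 and 4.25 CPM at 72 h, 33.8 and 12.3 CPM at day 3, 41.7 and 32.1 CPM at day 8 and 57.0 CPM at day 14. HTR2A had 23.5 and 17.7 CPM at 72 h, 48.2 and 25.1 CPM at day 3, 53.7 and 17.0 CPM at day 8 and 35.3 CPM at day 14, so its day 3 values overlapped those of day 8. CCNB1 had 363 and 484 CPM untreated, 10.3 and 13.6 CPM at 72 h, 18.3 and 20.7 CPM at day 3, 45.0 and 74.9 CPM at day 8 and 63.6 CPM at day 14. Its lowest libraries were those of 72 h and day 3.

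**Figure D3:**
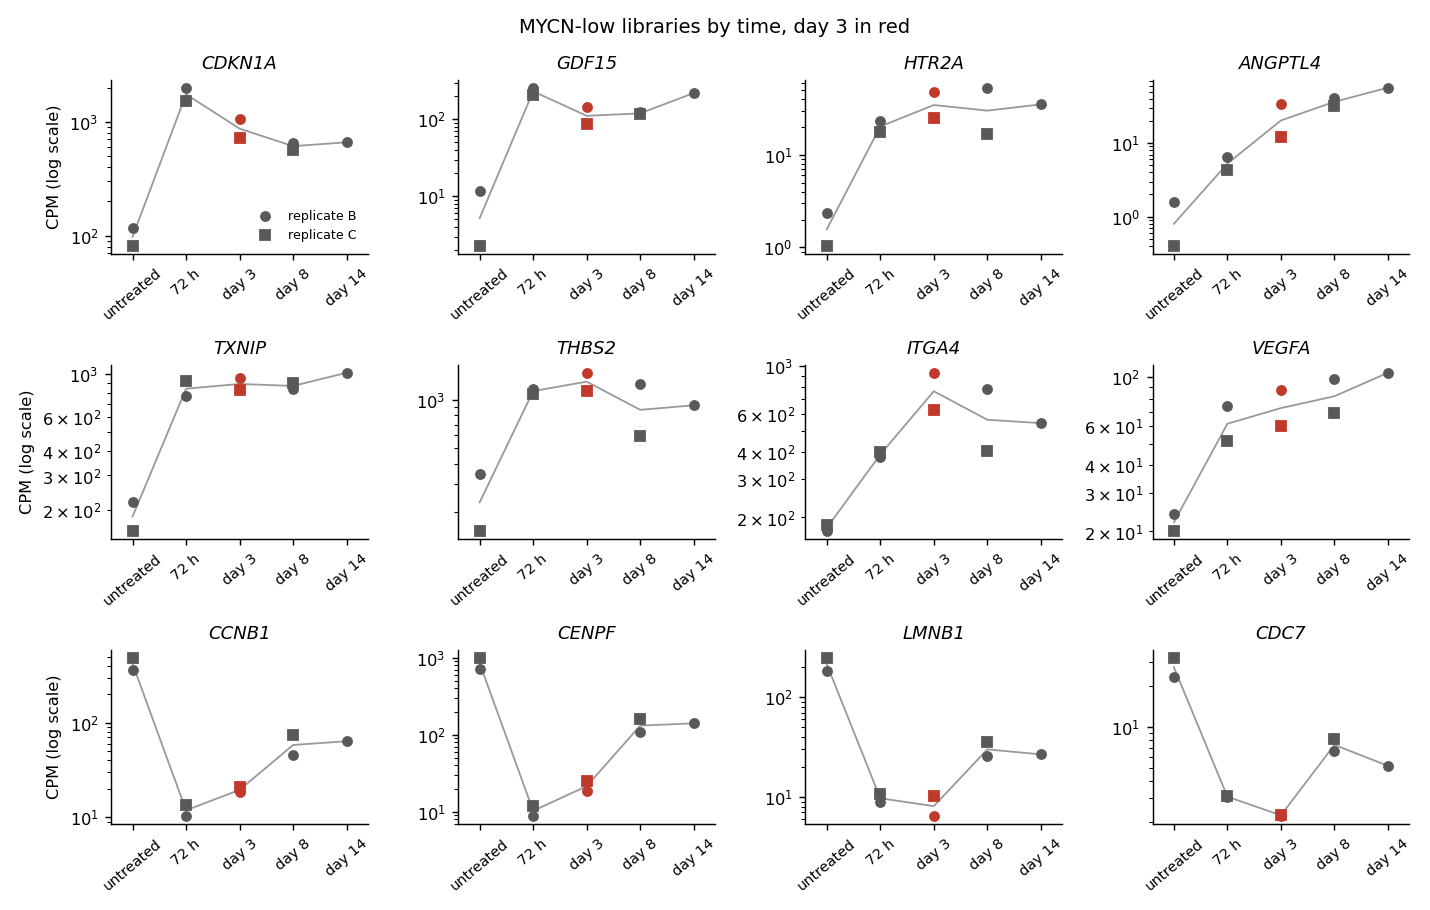
CPM on a log scale in each MYCN-low library for 12 genes, with time along the horizontal axis, circles for replicate B, squares for replicate C and day 3 in red; lines join geometric means, and day 14 is 1 library. CDKN1A stands highest at 72 h, ANGPTL4 climbs to day 14, and CCNB1, CENPF, LMNB1 and CDC7 stay far below the untreated level at 72 h and day 3.

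The response at day 3 was then set against that of MYCN-high cells, grown without doxycycline, in a test of the difference of the 2 fold changes (MYCN-low minus MYCN-high). A total of 1122 genes (7.58%) were called, 367 (2.48%) with a positive difference, here a higher response, and 755 (5.1%) with a negative one, a lower response; a positive difference can also come from a fall in MYCN-high cells. Leaving out any of the 8 libraries moved the count, to between 382 and 663 for 7 of them and to 3848 without untreated MYCN-low replicate C, where 2010 were higher and 1838 lower, so the excess of lower responses was not seen without that library. The mitosis list held 54 of 56 members with a lower response, with a median difference of -3.83 and between 44 and 52 members when a library was left out. CCNB1 illustrates this: its level in MYCN-high cells was 189 and 209 CPM at day 3, against 758 and 840 CPM untreated, a smaller fall than in MYCN-low cells. CDC20 had a difference of -5.76 and KIAA0101, a PCNA-binding protein, of -5.67. Histones had 42 of 49 members lower, with 28 to 41 when a library was left out. DNA replication had 27 lower and 1 higher, with between 10 and 28 lower when a library was left out, fewest without day 3 MYCN-low replicate B.

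**Figure D4:**
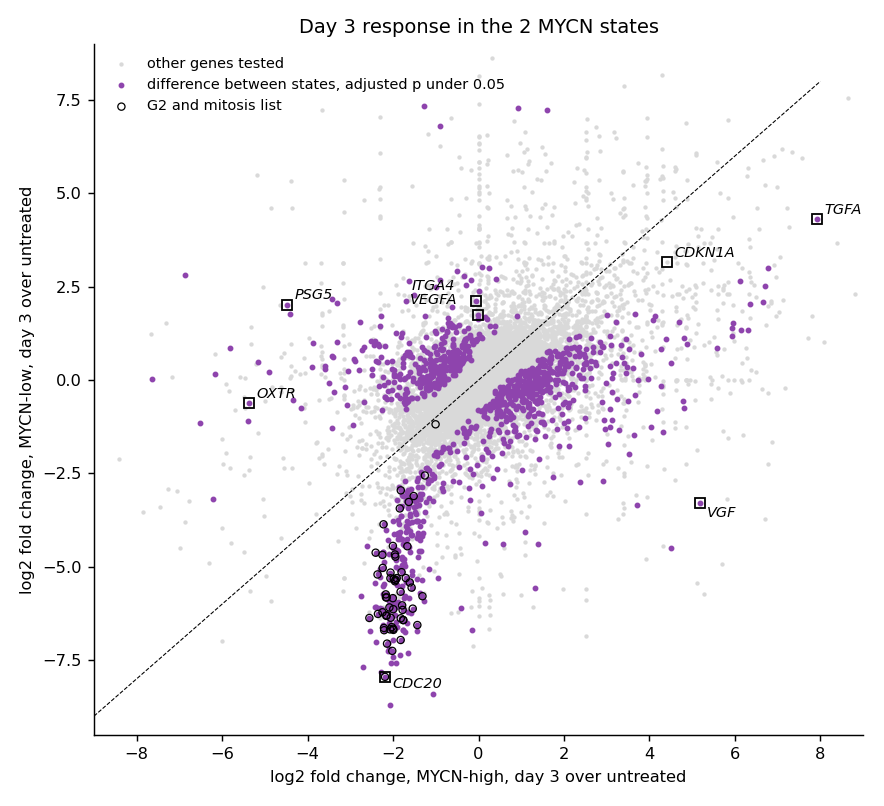
Each point is a tested gene, with the log2 fold change of day 3 over untreated in MYCN-low cells on the vertical axis and in MYCN-high cells on the horizontal axis. Purple points had an adjusted p under 0.05 for the difference, circles mark the mitosis list, squares the named genes, and the dashed line marks equal fold changes. The mitosis genes have a median of -1.99 in MYCN-high cells and of -5.80 in MYCN-low cells.

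For the markers the difference was not called. CDKN1A had 505 and 487 CPM in MYCN-high cells at day 3, against 23.5 and 22.9 CPM untreated, and its difference was -1.26 (edgeR adjusted p = 0.116). HTR2A stayed low in MYCN-high cells, at 1.09 and 0.890 CPM at day 3, against 0.195 and 0 CPM in untreated cells, so its fold change there rests on few counts (20 and 15, against 4 and 0), and the difference was 1.16 (edgeR adjusted p = 0.718). ANGPTL4 had 9.19 and 6.76 CPM in MYCN-high cells at day 3, against 0.0487 and 0.0463 CPM untreated. Its log2 fold change there, 7.22, rests on few untreated counts (169 and 114, against 1 and 1). The difference was -2.62 (edgeR adjusted p = 0.24). Genes with a positive difference included THBS2, which had 123 and 81.3 CPM in MYCN-high cells at day 3, against 118 and 83.4 CPM untreated, a difference of 2.37, and ITGA4, with 226 and 216 CPM in MYCN-high cells at day 3, against 220 and 238 CPM in untreated ones, a difference of 2.17. The THBS2 difference was not called without day 3 MYCN-low replicate B (2.15), untreated MYCN-high replicate B (2.07) or day 3 MYCN-high replicate C (2.10). PSG5, a pregnancy-specific glycoprotein whose family is near-identical and so uncertain, differed by 6.49, with log2 fold changes of 2.01 in MYCN-low and -4.47 in MYCN-high cells. OXTR, the oxytocin receptor, differed by 4.75 through a fall in MYCN-high cells (-5.36); it did not pass at day 3 in MYCN-low cells, with 98.8 and 111 CPM at day 3, against 141 and 179 CPM in untreated cells. VGF, a neurosecretory protein, had a lower response, with a difference of -8.47, and TGFA one of -3.60. Of 40 lysosome and autophagy genes, 9 had a lower response (22.5%, against 5.1% of all genes) and none a higher one (against 2.48%). Fewer had a lower response without day 3 MYCN-low replicate B or without replicate C of either MYCN-high group. More had one without untreated MYCN-low replicate C.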

How the data were processed

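Bulk RNA sequencing of SHEP TET21N cells was used, in 19 libraries of 10 groups. Per the labels' protocols, ribosomal RNA was depleted (RiboGold), ERCC RNAs were added and libraries were made with ScriptSeq; the molecule field names polyA RNA instead. Reads were processed with STAR 2.4.0h1, HTSeq and hg19, per the submitters' processing notes; the annotation and strand setting are not given in the sources used here, so overlapping and antisense genes cannot be told apart. The deposited table holds raw read counts for 23367 genes and 92 ERCC RNAs, and the ERCC RNAs were left out.

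Genes were filtered with edgeR's filterByExpr (14793 kept), scaled by TMM and fitted in edgeR 4.0.16 (R 4.3.3) with quasi-likelihood tests over all 10 groups, which share 1 estimate of the spread (9 residual degrees of freedom); the MYCN-low day 14 group has 1 library. Calls used a Benjamini-Hochberg adjusted p under 0.05. DESeq2 1.42.0 gave the alternatives of size factors and the Wald test; ERCC scaling, no filter, a replicate block, 4 libraries alone and leaving out each library were also tried. The code was tested on simulated data. Figures used Python 3.11.15 and matplotlib 3.10.9. In the main fit, p-values set each difference between groups against a spread estimated from all groups with 2 libraries, of 1 cell line, not from the 4 libraries compared. The single MYCN-low day 14 library was in the fit but adds nothing to that spread.

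Genes were named by rule: the markers with MYCN and MYC; the 15 largest called changes in each direction with a log2 fold change of 1 or more in size, a mean of at least 5 CPM in the higher group and no overlap; up to 6 called members of each list by smallest p; the 8 largest differences between states in each direction; and the 6 called genes with most counts in 1 group and 0 in the other, with some left out for length. Others are said to be chosen after their values were seen. The lists and markers were chosen with earlier results of these data known.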

Additional observations from a re-analysis of the deposited data

Results flagged for a closer look

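The response at day 3 differed between MYCN states for 1122 genes in edgeR's test of the difference. Values are the log2 fold change in MYCN-low cells minus that in MYCN-high cells, so a positive one can come from a rise in MYCN-low or a fall in MYCN-high cells. The difference was 6.49 for PSG5, 5.60 for the matrix protein MXRA5, 4.75 for OXTR, 4.33 for the actin-binding protein TAGLN and 4.32 for ANKRD1, a target of YAP. It was 5.65 for the natriuretic peptide receptor NPR3 and 5.38 for MYOCD, a coactivator of SRF. In MYCN-low cells the fold changes of OXTR (-0.61), NPR3 (0.48), MYOCD (-1.15), TAGLN (1.01) and ANKRD1 (1.55) did not pass, while in MYCN-high cells these genes fell, with -5.36 for OXTR, -5.17 for NPR3, -6.53 for MYOCD, -3.32 for TAGLN and -2.77 for ANKRD1. PSG5 and MXRA5 rose in MYCN-low cells (2.01 and 2.16) and fell in MYCN-high cells (-4.47 and -3.44). In MYCN-high cells none of the next 5 genes passed, and all 5 rose in MYCN-low cells. Their differences were those of THBS2 (2.37), ITGA4 (2.17), EFEMP1 (2.04), CALD1 (1.97) and VEGFA (1.74).

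Negative differences were those of the neurosecretory protein VGF (-8.47), CDC20 (-5.76), KIAA0101 (-5.67), HIST1H3B (-5.64), the proliferation marker MKI67 (-5.13), TGFA (-3.60) and VCAM1 (-2.43). MKI67, chosen after its values were seen, had 8.87 and 7.99 CPM at day 3 in MYCN-low cells, against 853 and 742 CPM untreated, and 261 and 249 CPM at day 3 in MYCN-high cells, against 784 and 591 CPM untreated. The differences of MXRA5, TAGLN, ANKRD1, NPR3, MYOCD, THBS2, EFEMP1 and VCAM1 were each lost when 1 or more single libraries were left out. The states differ in doxycycline as well as in MYCN, and these cannot be told apart.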

How the results depend on the processing

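Day 3 against untreated gave 3431 called genes, 3476 with DESeq2's size factors, 3951 with its Wald test, 3899 with no filter, 1387 with the 4 libraries alone and 0 under ERCC scaling. Leaving out 1 library gave 1912 to 4909. The difference between states gave 1122, with 1786 by the Wald test (44.8% higher, against 32.7%), 2079 with no filter and 0 under ERCC scaling, which moved its median over all genes to -1.17, from -0.05; 315 had an unadjusted p under 0.05. Leaving out 1 library gave 382 to 3848. Day 3 against 72 h gave 8 genes, 96 by the Wald test (53.1% higher, against 12.5%), 289 with no filter (63% higher), 0 under ERCC scaling (34 at an unadjusted p under 0.05) and 0 to 1 without 1 library. With a replicate block the counts were 3686, 1332 and 9; correlations of deviations between same-lettered libraries were 0.102 to 0.194, and the letters are not stated to mark a shared culture or day. Signs turned for MYC (0.39), DUSP14 (0.059) and RFC1 (0.27) under ERCC scaling, for MYCN (-0.29 to 0.42 without 1 library) and for the HTR2A difference (-2.91 to 2.14, lowest without MYCN-high untreated replicate B). The causes were not tested. With 2 libraries a group, the precision of single genes is low, above all under 1 CPM.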
